A study of Mus musculus with 8 samples.

Results

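The 40 genes described here are a fixed list of cell cycle genes: 19 that act in DNA replication, 20 that act in mitosis, and Stmn1, which encodes the microtubule-destabilising protein stathmin and was kept apart. They were taken by symbol from the gene rows of 4 single-cell RNA libraries, which together list 27405 genes, and all 40 were found. The cells were CD45+ immune cells sorted by FACS from tumours of MC38, a mouse colon carcinoma line. All samples carried a wild-type genotype label and 1 shared batch label, and they fell into 2 control libraries and 2 libraries from the LNP-Sirpa treatment. The treatment is labelled LNP-Sirpa, and the title of the series concerns the degradation of SIRPα, an inhibitory receptor of macrophages; the labels do not give dose or timing, what the controls received, or the age, sex or strain of the mice. They also do not say whether the 2 replicates of a group were separate mice, so the p-values rest on the spread between libraries, which may be technical. A further 4 libraries, labelled oligo, were not analysed here.

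Before a cell divides it copies its DNA once, in S phase. The MCM helicase is loaded at origins by Cdc6 and Cdt1, is switched on with the help of cyclin E, and unwinds the template while ribonucleotide reductase and thymidylate synthase supply deoxynucleotides and the PCNA clamp holds the polymerases in place. Many of these genes are switched on by E2F factors at the entry to S phase, whereas genes for cyclin B, the spindle, the kinetochore and the anaphase-promoting complex are switched on later, in G2 and mitosis, largely through CHR elements and CCAAT boxes bound by the DREAM, MuvB and NF-Y complexes. Tumour macrophages can renew themselves by division or be replaced from blood monocytes, and T and NK cells divide after activation.

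The libraries held 68654004 to 90789729 UMIs, and 7504 to 10876 cells per library passed the cell filter, with medians of 5925.5 to 7040 UMIs per cell. Cells were gated by UMIs of marker genes, none of which is a cell cycle gene. No gate was met by 34.6% of the cells in control 1 and 33.4% in control 2. The share was 50.9% in LNP-Sirpa 1 and 44.3% in LNP-Sirpa 2. A larger share of both LNP-Sirpa libraries was thus left out of every comparison, and the effect of this was not tested. In the order control 1, control 2, LNP-Sirpa 1 and LNP-Sirpa 2, which holds for every set of 4 values below, the macrophage gate held 4421, 6589, 2796 and 3567 cells, the monocyte gate 113, 73, 711 and 581, the dendritic gate 102, 123, 200 and 36, the T gate 129, 349, 935 and 656 and the NK gate 135, 98, 298 and 72. A neutrophil gate, which held 10, 13, 135 and 105 cells, served as a rough background, since mature neutrophils do not divide. Whether its cells were mature, and whether its cell cycle UMIs were free RNA, was not tested. UMIs were summed over the cells of a gate in each library and scaled by that sum to CPM, so that gates of different size can be compared. Outside the neutrophil gate the sums ran from 199836 to 1241885 UMIs in the dendritic gate to 24334019 to 53315545 in the macrophage gate. The neutrophil gate held only 25920, 20839, 458704 and 305376 UMIs, so its control values rest on very few UMIs and cannot set a background level. CPM values are not divided by transcript length, so they are compared between gates and libraries and not between genes. A sum cannot tell more dividing cells from more cell cycle RNA in each of them. All 8 macrophage markers were present in macrophage-gated cells, at 13986 to 17225 CPM in sum. The 7 T-cell markers summed to 5182 to 6136 CPM in T-gated cells. These are the gating markers, and each cell needed at least 60 macrophage or 20 T-cell marker UMIs per 10000. High sums were therefore set by the gates and do not test their names. Markers of epithelial tumour cells summed to 0.352 to 1.07 CPM in the macrophage gate and 0.887 to 5.02 CPM in the T gate. T-gated cells also held pan-phagocyte marker RNA, at 1381, 1363, 937 and 1049 CPM in sum. The T gate kept only cells with fewer than 25 of these UMIs per 10000, which limits the sums. The part of this RNA in the results on T cells was not tested. Sirpa itself was at 563, 551, 471 and 346 CPM in macrophage-gated cells.

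The promoters of the members are shown because replication and mitotic genes are textbook targets of different elements. RefSeq promoter windows on GRCm38.p6, from 250 bases before to 50 bases after the start, were matched for 33 of the 40 genes, 16 of them replication and 17 mitotic genes. An E2F site, spelled TTTCCCGC or TTTGGCGC on either strand, was in 7 of 16 (43.8%) of the replication windows, in 0 of 17 mitotic ones and in 1.80% of the 27025 promoters in the table. A CHR element, spelled TTTGAA on either strand, was in 12 of 17 (70.6%) of the mitotic windows, in 2 of 16 (12.5%) of the replication ones and in 20.2% of all promoters. A CCAAT box on either strand was in 15 of 17 (88.2%) mitotic, 9 of 16 (56.2%) replication and 41.1% of all windows. A match is a description of the letters and not a bound site. The 150 bases before the start are printed for 3 replication genes and 3 mitotic genes whose levels are given below, 5′ to 3′ on the strand of the gene, with E2F sites, CHR elements and CCAAT boxes on either strand in capitals.
Mcm6 (chr1:128359706-128359855, - strand): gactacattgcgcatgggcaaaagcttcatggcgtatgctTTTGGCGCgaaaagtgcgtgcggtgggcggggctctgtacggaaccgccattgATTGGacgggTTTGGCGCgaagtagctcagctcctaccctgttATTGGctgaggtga
Mcm5 (chr8:75109359-75109508, + strand): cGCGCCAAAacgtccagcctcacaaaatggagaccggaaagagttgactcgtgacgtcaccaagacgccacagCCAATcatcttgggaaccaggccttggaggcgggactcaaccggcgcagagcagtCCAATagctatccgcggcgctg
Cdc6 (chr11:98908001-98908150, + strand): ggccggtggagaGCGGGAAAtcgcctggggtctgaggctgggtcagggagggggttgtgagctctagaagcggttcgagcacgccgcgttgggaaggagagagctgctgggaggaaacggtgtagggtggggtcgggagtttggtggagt
Top2a (chr11:99024190-99024339, - strand): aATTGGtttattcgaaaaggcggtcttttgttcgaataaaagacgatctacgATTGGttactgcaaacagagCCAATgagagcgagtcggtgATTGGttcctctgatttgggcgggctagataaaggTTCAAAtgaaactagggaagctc
Cdk1 (chr10:69352913-69353062, - strand): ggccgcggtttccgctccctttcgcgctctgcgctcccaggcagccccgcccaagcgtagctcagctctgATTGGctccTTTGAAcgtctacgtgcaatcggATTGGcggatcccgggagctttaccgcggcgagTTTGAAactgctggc
Mki67 (chr7:135716380-135716529, - strand): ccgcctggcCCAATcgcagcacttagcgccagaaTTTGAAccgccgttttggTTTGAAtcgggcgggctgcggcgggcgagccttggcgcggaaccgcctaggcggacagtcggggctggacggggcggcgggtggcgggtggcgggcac

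Mcm6 and Mcm5, which encode helicase subunits, and Cdc6, the helicase loader, show the E2F letters. They are among the 7 of 16 replication windows with such a site, so they are examples and do not stand for the list. Mcm6 and Mcm5 also show CCAAT boxes. Top2a, Cdk1 and Mki67 show CHR elements and CCAAT boxes and no E2F site of these spellings.

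In most libraries the macrophage, T and NK gates held more cell cycle RNA than the monocyte and dendritic gates. The 19 replication genes summed to 863, 662, 517 and 556 CPM in macrophage-gated cells. In T-gated cells they summed to 573, 768, 1015 and 903 CPM, and in NK-gated cells to 879, 695, 615 and 799 CPM. They summed to 323, 154, 230.1 and 267 CPM in monocyte-gated and 232, 284, 351 and 200.2 CPM in dendritic-gated cells, and every one of these values lay below every macrophage-gated value. Neutrophil-gated cells, the background, held 116, 144, 137 and 144 CPM, of which the control values rest on very few UMIs.

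The 20 mitotic genes summed to 1152, 805, 664 and 614 CPM in macrophage-gated cells. The T-gated sums were 780.1, 708, 1109 and 870.3 CPM and the NK-gated sums 1162, 760.5, 555 and 2098 CPM. NK-gated LNP-Sirpa 2 was the highest of all gates and libraries, and LNP-Sirpa 1 of the same gate was the lowest of the NK-gated values. Monocyte-gated cells held 616, 154, 216 and 131 CPM and dendritic-gated cells 178, 385, 419 and 135 CPM, beside 116, 192, 344 and 288 CPM in the neutrophil background. The monocyte-gated sums of both LNP-Sirpa libraries lay below the neutrophil-gated sums of the same libraries, but their mitotic UMIs were unevenly spread: 1 cell held 117 of 952 mitotic UMIs in LNP-Sirpa 1 and 1 cell 37 of 398 mitotic UMIs in LNP-Sirpa 2. The small gates leaned on single cells: 1 cell held 31.2% of the mitotic UMIs of monocyte-gated control 1. Likewise 1 cell held 45.7% in dendritic-gated control 2 and 32.2% in NK-gated LNP-Sirpa 2. In macrophage-gated cells the top cell held at most 1.46%.

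The balance of the groups was much the same in macrophage-gated libraries, where the replication sum was 0.750, 0.822, 0.779 and 0.906 times the mitotic sum. It was 0.735, 1.08, 0.915 and 1.04 times in T-gated cells. The NK-gated ratios, 0.756, 0.914, 1.11 and 0.381, spread more widely, with LNP-Sirpa 2 the lowest. In the neutrophil background the ratios were 1.0, 0.75, 0.399 and 0.5. Stmn1 was at 309.9, 219, 127 and 177 CPM in macrophage-gated cells, 171, 241, 349 and 349.6 CPM in T-gated cells and 331, 245, 160.3 and 344 CPM in NK-gated cells. Its monocyte-gated values were 102, 29.0, 43.7 and 43.5 CPM and its dendritic-gated values 84.6, 71.8, 62.0 and 40.03 CPM, all below the lowest macrophage-gated value.

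**Figure D1:**
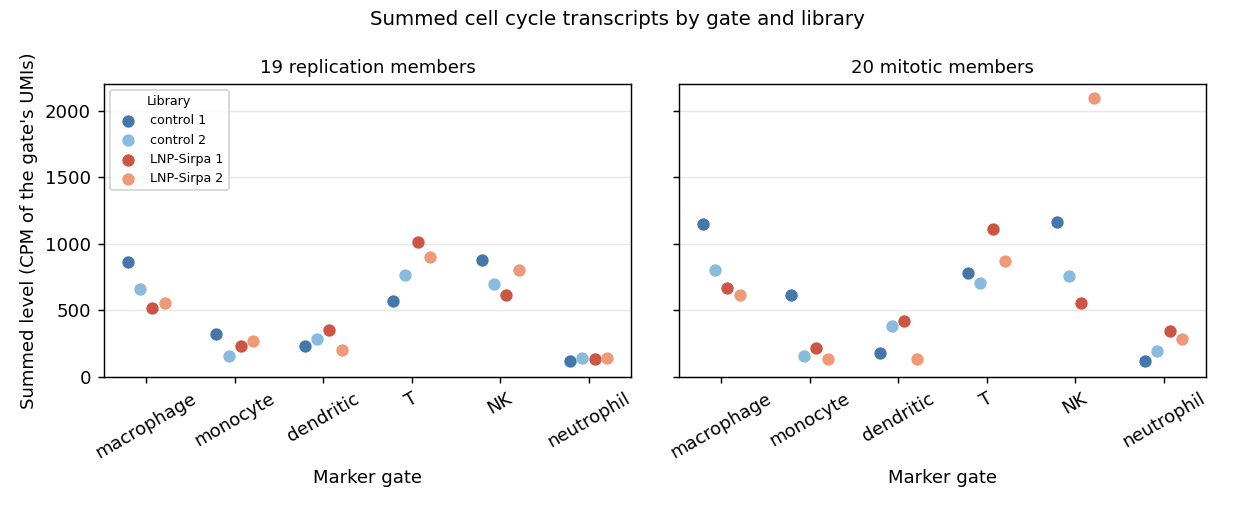
Summed CPM of the 19 replication genes (left) and the 20 mitotic genes (right) in each gate, 1 point per library, with the neutrophil gate as background. Monocyte-gated and dendritic-gated points lie below the macrophage-gated ones for the replication genes, and NK-gated LNP-Sirpa 2 stands highest for the mitotic genes at 2098 CPM.

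Monocyte-gated cells were compared with macrophage-gated cells within libraries, by edgeR with the library as a block and p-values adjusted over all genes tested. Of the 40 members, 37 were lower in monocyte-gated cells and none was higher, where 10.7% of all genes tested were lower. These were 18 of 19 replication genes, 18 of 20 mitotic genes and Stmn1; Ccne1, Ube2c and Bub1 did not pass. The median log2 difference was -1.07 over the replication genes and -1.59 over the mitotic genes, against -0.02 over all genes tested. In dendritic-gated cells 35 members were lower and none higher, where 22.5% of all genes were lower; all 20 mitotic genes, 14 replication genes and Stmn1 passed, and Mcm4, Gins2, Cdc6, Fen1 and Ccne1 did not. The medians there were -1.08 and -1.28, against -0.16 over all genes. The dendritic count was 18 when each cell was thinned to 2000 UMIs.

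The MCM genes encode the subunits of the replicative helicase. Mcm2 was at 38.0, 31.3, 29.5 and 24.3 CPM in the macrophage-gated libraries, at 10.7, 2.90, 15.2 and 12.9 CPM in the monocyte-gated ones and at 10.3, 13.6, 15.3 and 0 CPM in the dendritic-gated ones. Mcm3 was at 60.2, 45.0, 41.1 and 39.0 CPM in the macrophage-gated libraries, at 22.9, 11.6, 16.8 and 23.4 CPM in the monocyte-gated ones and at 15.4, 18.6, 30.6 and 15.01 CPM in the dendritic-gated ones. Mcm4 was at 23.9, 18.6, 17.9 and 16.1 CPM in the macrophage-gated libraries, at 6.10, 11.6, 9.28 and 12.5 CPM in the monocyte-gated ones and at 14.1, 16.1, 12.9 and 5.004 CPM in the dendritic-gated ones. Each macrophage-gated value of these 3 genes lay above all monocyte-gated ones, and Mcm4 overlapped between the macrophage and dendritic gates. Mcm5 was at 48.3, 34.1, 27.5 and 29.0 CPM in the macrophage-gated libraries, at 22.9, 5.80, 12.7 and 14.2 CPM in the monocyte-gated ones and at 7.69, 17.3, 15.3 and 10.01 CPM in the dendritic-gated ones. Mcm5 differed by -1.04 ± 0.18 (SE), adjusted p = 7.33e-05 on the log2 scale in monocyte-gated cells and by -1.26 ± 0.26 (SE), adjusted p = 7.51e-06 in dendritic-gated cells. Its macrophage-gated values did not overlap with either. T-gated cells held Mcm5 at 25.1, 36.4, 47.3 and 39.9 CPM and NK-gated cells at 35.4, 39.9, 39.1 and 39.7 CPM. Mcm6 was at 69.8, 53.8, 44.8 and 45.5 CPM in the macrophage-gated libraries, at 29.0, 14.5, 17.4 and 19.8 CPM in the monocyte-gated ones and at 12.8, 16.1, 25.8 and 0 CPM in the dendritic-gated ones. Mcm7 was at 56.3, 45.0, 32.0 and 36.9 CPM in the macrophage-gated libraries, at 18.3, 0, 14.0 and 23.7 CPM in the monocyte-gated ones and at 12.8, 18.6, 20.9 and 10.01 CPM in the dendritic-gated ones. Mcm6 and Mcm7 were again lower without overlap, with monocyte-gated log2 differences of -1.21 ± 0.15 and -1.07 ± 0.31 (SE).

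Cdc6 and Cdt1 load the helicase at origins, and Gins2 encodes a subunit of the active helicase complex. Cdc6 was at 8.51, 6.17, 6.95 and 6.72 CPM in the macrophage-gated libraries, at 7.62, 2.90, 2.04 and 2.64 CPM in the monocyte-gated ones and at 2.56, 1.24, 5.64 and 0 CPM in the dendritic-gated ones. The monocyte-gated values of Cdc6 overlapped with the macrophage-gated ones, and the log2 difference was -1.14 ± 0.35 (SE), adjusted p = 0.0193. T-gated cells held Cdc6 at 1.25, 6.21, 10.2 and 7.68 CPM and NK-gated cells at 5.54, 1.049, 4.49 and 3.78 CPM. All NK-gated values of Cdc6 lay below the macrophage-gated ones. Cdt1 was at 25.7, 23.6, 27.2 and 22.7 CPM in the macrophage-gated libraries, at 10.7, 8.70, 18.3 and 17.1 CPM in the monocyte-gated ones and at 10.3, 11.1, 16.1 and 5.004 CPM in the dendritic-gated ones. Gins2 was at 35.8, 29.0, 19.03 and 20.2 CPM in the macrophage-gated libraries, at 6.10, 14.5, 9.28 and 10.5 CPM in the monocyte-gated ones and at 14.1, 19.8, 15.3 and 20.02 CPM in the dendritic-gated ones. Cdt1 and Gins2 were lower in monocyte-gated cells, by log2 differences of -0.53 ± 0.18 and -1.06 ± 0.21 (SE), with no overlap.

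Cyclins E1 and E2 drive the kinase that starts S phase. Ccne1 was at 6.67, 4.26, 5.22 and 5.28 CPM in the macrophage-gated libraries, at 0, 2.90, 3.17 and 2.31 CPM in the monocyte-gated ones and at 0, 1.24, 4.83 and 0 CPM in the dendritic-gated ones. Ccne1 did not pass in either gate; its log2 differences were -0.98 ± 0.40 (SE), adjusted p = 0.0813 and -1.19 ± 0.60 (SE), adjusted p = 0.102. T-gated cells held Ccne1 at 1.25, 1.77, 7.34 and 3.69 CPM and NK-gated cells at 2.77, 5.24, 2.69 and 1.89 CPM. Ccne2 was at 11.6, 7.54, 6.37 and 8.95 CPM in the macrophage-gated libraries, at 0, 0, 1.13 and 2.97 CPM in the monocyte-gated ones and at 1.28, 3.71, 1.61 and 5.004 CPM in the dendritic-gated ones. Ccne2, in contrast to Ccne1 a member that passed in both, differed by -2.17 ± 0.40 (SE) in monocyte-gated cells, where both control libraries were at 0. T-gated cells held Ccne2 at 5.02, 7.54, 8.88 and 7.37 CPM and NK-gated cells at 6.09, 2.10, 2.69 and 1.89 CPM. The difference between the cyclin genes was not tested.

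Ribonucleotide reductase, made of Rrm1 and Rrm2 subunits, and thymidylate synthase, encoded by Tyms, supply deoxynucleotides, and thymidine kinase Tk1 salvages thymidine. Rrm2 was at 24.96, 20.7, 10.5 and 13.9 CPM in the macrophage-gated libraries, at 4.57, 2.90, 4.98 and 1.98 CPM in the monocyte-gated ones and at 7.69, 3.71, 12.9 and 5.004 CPM in the dendritic-gated ones. Rrm2 differed by -1.75 ± 0.29 (SE), adjusted p = 0.000114 on the log2 scale in monocyte-gated cells and by -0.90 ± 0.33 (SE), adjusted p = 0.0210 in dendritic-gated cells, where its values overlapped with the macrophage-gated ones. T-gated cells held Rrm2 at 28.8, 28.8, 38.2 and 45.8 CPM and NK-gated cells at 42.1, 36.7, 13.9 and 26.5 CPM. All 4 T-gated values of Rrm2 lay above all 4 macrophage-gated values. Rrm1 was at 58.5, 44.6, 30.1 and 30.3 CPM in the macrophage-gated libraries, at 15.2, 5.80, 12.9 and 13.8 CPM in the monocyte-gated ones and at 15.4, 22.3, 19.3 and 15.01 CPM in the dendritic-gated ones. Tyms was at 48.5, 38.1, 20.6 and 29.6 CPM in the macrophage-gated libraries, at 10.7, 5.80, 8.15 and 9.56 CPM in the monocyte-gated ones and at 14.1, 19.8, 21.7 and 20.02 CPM in the dendritic-gated ones. T-gated cells held Tyms at 47.7, 63.9, 70.8 and 75.0 CPM and NK-gated cells at 65.9, 51.4, 37.7 and 68.0 CPM. Tyms was lower in monocyte-gated cells by -1.55 ± 0.20 (SE, log2) without overlap and Rrm1 by -1.29 ± 0.19 (SE). Tk1 was at 68.7, 55.0, 25.2 and 33.1 CPM in the macrophage-gated libraries, at 24.4, 5.80, 6.79 and 6.26 CPM in the monocyte-gated ones and at 7.69, 7.43, 9.66 and 5.004 CPM in the dendritic-gated ones. Tk1 had the largest dendritic-gated difference of the replication genes, -2.30 ± 0.28 (SE, log2). Ung, which removes uracil from DNA, was at 11.7, 8.08, 10.7 and 8.07 CPM in macrophage-gated, 1.52, 2.90, 2.26 and 3.63 CPM in monocyte-gated and 1.28, 2.48, 5.64 and 5.004 CPM in dendritic-gated cells.

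At the fork, Pcna encodes the sliding clamp, Pclaf a protein that binds it, and Fen1 the nuclease that trims lagging-strand fragments. Pcna was at 86.9, 65.9, 59.8 and 68.2 CPM in the macrophage-gated libraries, at 48.8, 43.5, 36.5 and 54.7 CPM in the monocyte-gated ones and at 34.6, 30.95, 35.4 and 30.02 CPM in the dendritic-gated ones. Pcna had the smallest monocyte-gated difference of the 40 members, -0.48 ± 0.13 (SE), adjusted p = 0.00940, and differed by -0.96 ± 0.20 (SE), adjusted p = 7.21e-06 in dendritic-gated cells. T-gated cells held Pcna at 92.8, 81.2, 88.8 and 108 CPM and NK-gated cells at 104, 61.9, 70.9 and 79.4 CPM. Pclaf was at 148, 105, 79.0 and 95.9 CPM in the macrophage-gated libraries, at 56.4, 8.70, 26.0 and 17.8 CPM in the monocyte-gated ones and at 38.5, 35.9, 67.6 and 20.02 CPM in the dendritic-gated ones. Pclaf, by contrast, differed by -1.82 ± 0.25 (SE, log2) in monocyte-gated cells, without overlap. Fen1 was at 31.6, 26.0, 24.0 and 22.4 CPM in the macrophage-gated libraries, at 27.4, 2.90, 13.1 and 16.8 CPM in the monocyte-gated ones and at 11.5, 23.5, 14.5 and 30.02 CPM in the dendritic-gated ones. Fen1 overlapped between macrophage-gated and monocyte-gated libraries and differed by -0.55 ± 0.20 (SE), adjusted p = 0.0484.

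Among the mitotic genes, cyclins A2, B1 and B2 and their kinase Cdk1 drive entry into mitosis. Ccnb1 was at 23.8, 15.01, 12.6 and 13.1 CPM in the macrophage-gated libraries, at 7.62, 0, 2.72 and 0.659 CPM in the monocyte-gated ones and at 3.85, 4.95, 4.03 and 0 CPM in the dendritic-gated ones. Ccnb1 differed by -2.49 ± 0.34 (SE), adjusted p = 8.40e-06 on the log2 scale in monocyte-gated cells, the largest monocyte-gated difference of the 40 members, and by -1.91 ± 0.41 (SE), adjusted p = 2.03e-05 in dendritic-gated cells. T-gated cells held Ccnb1 at 10.03, 14.2, 16.2 and 18.4 CPM and NK-gated cells at 36.0, 10.5, 21.1 and 41.6 CPM. All monocyte-gated and dendritic-gated values of Ccnb1 lay below the macrophage-gated ones. Ccnb2 was at 49.3, 36.3, 30.9 and 30.03 CPM in the macrophage-gated libraries, at 9.15, 11.6, 5.89 and 3.30 CPM in the monocyte-gated ones and at 3.85, 11.1, 11.3 and 5.004 CPM in the dendritic-gated ones. Ccna2 was at 36.9, 24.7, 22.8 and 17.6 CPM in the macrophage-gated libraries, at 12.2, 0, 5.43 and 1.32 CPM in the monocyte-gated ones and at 2.56, 13.6, 15.3 and 0 CPM in the dendritic-gated ones. Ccnb2 and Ccna2 followed in monocyte-gated cells, at log2 differences of -2.43 ± 0.22 and -2.28 ± 0.30 (SE). Cdk1 was at 57.0, 36.0, 24.4 and 30.4 CPM in the macrophage-gated libraries, at 32.0, 2.90, 6.79 and 6.59 CPM in the monocyte-gated ones and at 7.69, 7.43, 24.96 and 5.004 CPM in the dendritic-gated ones. Cdk1 differed by -1.64 ± 0.23 (SE), adjusted p = 3.06e-05 and by -1.27 ± 0.26 (SE), adjusted p = 6.17e-06, and control 1 of the monocyte gate and LNP-Sirpa 1 of the dendritic gate overlapped with the macrophage-gated values. T-gated cells held Cdk1 at 37.6, 29.3, 38.6 and 35.0 CPM and NK-gated cells at 67.0, 37.8, 20.2 and 60.5 CPM.

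Mki67 encodes the Ki-67 protein that coats mitotic chromosomes and marks proliferating cells, and Top2a the topoisomerase that untangles sister chromatids. Mki67 was at 163, 121, 81.1 and 67.3 CPM in the macrophage-gated libraries, at 85.4, 17.4, 19.02 and 17.8 CPM in the monocyte-gated ones and at 34.6, 63.1, 64.4 and 10.01 CPM in the dendritic-gated ones. Mki67 differed by -1.66 ± 0.21 (SE), adjusted p = 0.000251 in monocyte-gated cells, of which control 1 overlapped with the macrophage-gated values, and by -1.08 ± 0.19 (SE), adjusted p = 8.74e-08 in dendritic-gated cells, without overlap. T-gated cells held Mki67 at 81.5, 67.9, 140.5 and 84.8 CPM and NK-gated cells at 79.7, 52.4, 51.2 and 134 CPM. Top2a was at 126, 95.5, 96.0 and 73.5 CPM in the macrophage-gated libraries, at 76.2, 20.3, 31.5 and 17.5 CPM in the monocyte-gated ones and at 12.8, 24.8, 78.1 and 20.02 CPM in the dendritic-gated ones. Top2a differed by -1.45 ± 0.22 (SE), adjusted p = 0.000756 and by -1.43 ± 0.25 (SE), adjusted p = 4.19e-06, with overlap from control 1 of the monocyte gate and LNP-Sirpa 1 of the dendritic gate. T-gated cells held Top2a at 114, 98.9, 190.5 and 139 CPM and NK-gated cells at 101, 81.8, 84.4 and 206 CPM. Background was present for both: in neutrophil-gated cells Mki67 was at 0, 0, 39.2 and 39.3 CPM and Top2a at 0, 0, 58.9 and 45.8 CPM.

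Cdc20 activates the anaphase-promoting complex and Ube2c is the ubiquitin-conjugating enzyme that works with it. Cdc20 was at 30.5, 18.9, 15.2 and 13.1 CPM in the macrophage-gated libraries, at 15.2, 0, 7.93 and 4.62 CPM in the monocyte-gated ones and at 6.41, 12.4, 4.83 and 0 CPM in the dendritic-gated ones. Cdc20 differed by -1.11 ± 0.24 (SE), adjusted p = 0.00152 and by -1.40 ± 0.35 (SE), adjusted p = 0.000238. T-gated cells held Cdc20 at 26.3, 14.6, 25.3 and 19.4 CPM and NK-gated cells at 58.7, 51.4, 24.7 and 149 CPM. The NK-gated value of LNP-Sirpa 2 was far above that of the other 3 NK-gated libraries. Ube2c was at 109.9, 63.8, 64.1 and 67.5 CPM in the macrophage-gated libraries, at 90.0, 14.5, 34.6 and 12.2 CPM in the monocyte-gated ones and at 18.0, 59.4, 39.5 and 20.02 CPM in the dendritic-gated ones. Ube2c did not pass in monocyte-gated cells, at -1.11 ± 0.49 (SE), adjusted p = 0.234, where the libraries overlapped. T-gated cells held Ube2c at 119, 86.9, 114 and 92.5 CPM and NK-gated cells at 171, 45.1, 89.4 and 493 CPM.

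Birc5, Cdca8 and Aurkb encode the survivin, borealin and Aurora B members of the chromosomal passenger complex, and Aurka, Plk1 and Bub1 encode other mitotic kinases. Birc5 was at 108, 76.1, 56.6 and 55.1 CPM in the macrophage-gated libraries, at 48.8, 14.5, 14.9 and 7.25 CPM in the monocyte-gated ones and at 21.8, 24.8, 23.4 and 25.02 CPM in the dendritic-gated ones. Cdca8 was at 69.7, 47.5, 38.9 and 39.8 CPM in the macrophage-gated libraries, at 47.3, 20.3, 13.6 and 9.56 CPM in the monocyte-gated ones and at 8.98, 24.8, 32.2 and 5.004 CPM in the dendritic-gated ones. Aurkb was at 19.6, 14.97, 10.03 and 11.1 CPM in the macrophage-gated libraries, at 6.10, 0, 2.94 and 1.98 CPM in the monocyte-gated ones and at 5.13, 3.71, 9.66 and 5.004 CPM in the dendritic-gated ones. Birc5 and Aurkb were lower without overlap in the monocyte and dendritic gates, whereas Cdca8 overlapped in the monocyte gate. Aurka was at 19.6, 15.5, 12.2 and 13.2 CPM in the macrophage-gated libraries, at 4.57, 5.80, 6.57 and 5.27 CPM in the monocyte-gated ones and at 5.13, 11.1, 7.25 and 0 CPM in the dendritic-gated ones. Plk1 was at 35.4, 23.0, 23.4 and 17.2 CPM in the macrophage-gated libraries, at 18.3, 5.80, 7.93 and 2.64 CPM in the monocyte-gated ones and at 2.56, 9.90, 8.05 and 10.01 CPM in the dendritic-gated ones. Aurka was lower without overlap in both gates, and Plk1 overlapped in the monocyte gate only. Bub1 was at 11.4, 7.33, 6.45 and 6.22 CPM in the macrophage-gated libraries, at 13.7, 0, 2.26 and 1.98 CPM in the monocyte-gated ones and at 0, 1.24, 0.805 and 0 CPM in the dendritic-gated ones. Bub1 did not pass in monocyte-gated cells, at a log2 difference of -1.004 ± 0.37 (SE), adjusted p = 0.0551, and its dendritic-gated call rests on 2 UMIs in all 4 libraries together, so no fold is given.

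Nusap1, Prc1 and Tpx2 bind spindle microtubules, Cenpe and Cenpf act at kinetochores, and Cdca3 promotes mitotic entry. Nusap1 was at 36.6, 29.2, 19.6 and 17.9 CPM in the macrophage-gated libraries, at 24.4, 0, 7.70 and 5.60 CPM in the monocyte-gated ones and at 3.85, 11.1, 16.1 and 0 CPM in the dendritic-gated ones. T-gated cells held Nusap1 at 20.1, 32.8, 53.9 and 45.5 CPM and NK-gated cells at 46.5, 18.9, 16.2 and 64.3 CPM. Prc1 was at 42.6, 31.8, 26.1 and 26.4 CPM in the macrophage-gated libraries, at 27.4, 8.70, 7.02 and 5.27 CPM in the monocyte-gated ones and at 5.13, 17.3, 16.1 and 0 CPM in the dendritic-gated ones. Control 1 of the monocyte gate overlapped with the macrophage-gated values of both Nusap1 and Prc1. Tpx2 was at 51.8, 35.5, 33.8 and 27.2 CPM in the macrophage-gated libraries, at 21.3, 20.3, 10.6 and 8.24 CPM in the monocyte-gated ones and at 15.4, 17.3, 20.9 and 20.02 CPM in the dendritic-gated ones. Cenpe was at 36.2, 28.4, 27.9 and 23.5 CPM in the macrophage-gated libraries, at 18.3, 2.90, 8.60 and 5.93 CPM in the monocyte-gated ones and at 6.41, 17.3, 8.86 and 5.004 CPM in the dendritic-gated ones. Tpx2 and Cenpe were lower in both gates with no overlap. Cenpf was at 51.9, 35.8, 27.9 and 22.8 CPM in the macrophage-gated libraries, at 22.9, 5.80, 7.93 and 7.58 CPM in the monocyte-gated ones and at 2.56, 34.7, 14.5 and 5.004 CPM in the dendritic-gated ones. Cdca3 was at 72.8, 48.8, 34.3 and 40.9 CPM in the macrophage-gated libraries, at 35.1, 2.90, 11.5 and 5.93 CPM in the monocyte-gated ones and at 11.5, 14.9, 18.5 and 0 CPM in the dendritic-gated ones. Cenpf and Cdca3 overlapped in the monocyte gate and differed there by -1.53 ± 0.19 and -1.76 ± 0.32 (SE, log2).

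Few members differed between T-gated and macrophage-gated cells. Of the 40 members, 4 were higher in T-gated cells, Mcm4, Rrm2, Tyms and Ube2c, and none was lower, where 27.6% of all genes tested were higher, so the share of members was below that of all genes. Mcm4 differed by 0.63 ± 0.16 (SE), adjusted p = 0.00455 on the log2 scale, from 23.9, 18.6, 17.9 and 16.1 CPM in macrophage-gated to 27.6, 26.2, 43.0 and 30.4 CPM in T-gated cells, without overlap. Rrm2 differed by 1.02 ± 0.27 (SE), adjusted p = 0.0141. Tyms differed by 0.88 ± 0.25 (SE), adjusted p = 0.0198 and Ube2c by 0.31 ± 0.12 (SE), adjusted p = 0.0367. The median log2 difference was 0.03 over the replication genes and -0.02 over the mitotic genes, and the members ran from -0.50 to 1.02. The count of higher members was 12 without control 1, 2 without control 2, 2 without LNP-Sirpa 1, with 5 lower, and 2 without LNP-Sirpa 2. With cells thinned to 2000 UMIs it was 5 higher and 3 lower.

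In NK-gated cells Rrm2, Tyms and Ccnb1 were higher than in macrophage-gated cells and Ccne2 and Cdc6 were lower, where 47.8% of all genes tested passed in 1 direction or the other. The log2 differences were 0.64 ± 0.18 (SE), adjusted p = 0.00655 for Rrm2, 0.62 ± 0.16 (SE), adjusted p = 0.00227 for Tyms and 0.59 ± 0.23 (SE), adjusted p = 0.0443 for Ccnb1. Ccne2 differed by -1.35 ± 0.34 (SE), adjusted p = 0.00223 and Cdc6 by -0.93 ± 0.34 (SE), adjusted p = 0.0313, both without overlap between the gates. These calls leaned on the gates and on depth: with stricter gates 20 members were lower and 0 higher, and with cells thinned to 2000 UMIs 2 were lower and 0 higher. The counts of higher and lower members were 1 and 2 without control 1, 3 and 2 without control 2, 4 and 1 without LNP-Sirpa 1, and 3 and 3 without LNP-Sirpa 2.

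**Figure D2:**
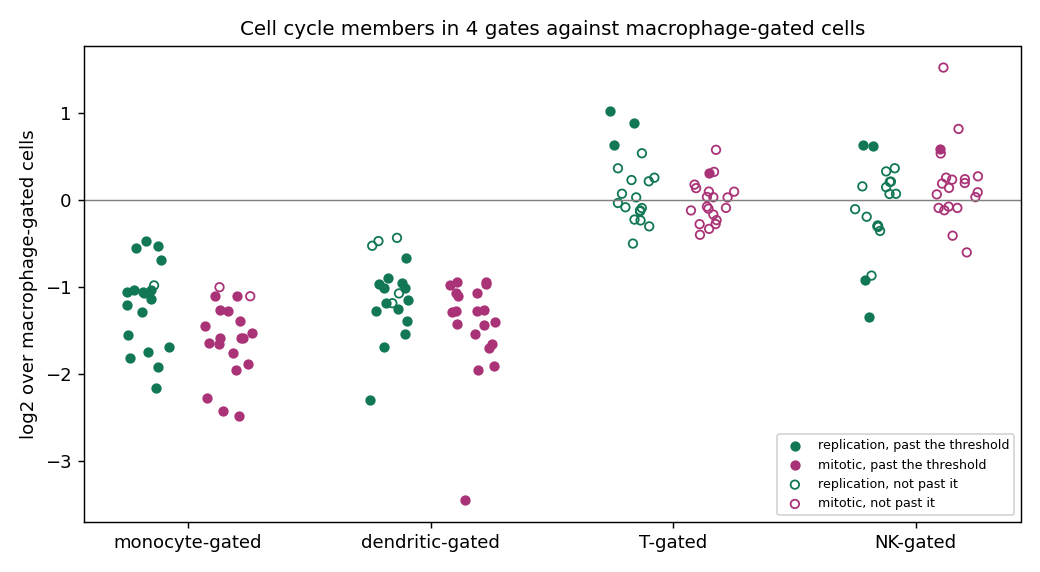
Log2 difference from macrophage-gated cells for the 39 replication and mitotic genes (1 point each) in monocyte-gated, dendritic-gated, T-gated and NK-gated cells, with filled points past the threshold. The monocyte-gated and dendritic-gated points lie below 0 for every gene shown, of which the lowest, Bub1 in dendritic-gated cells, rests on 2 UMIs, and the T-gated points run from -0.50 to 1.02.

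Wider lists of 40 further replication genes, 51 further mitotic genes and 38 cell cycle controllers, the last made up of D cyclins, kinase inhibitors, the RB and E2F families and their relatives, were read from the same fits. In monocyte-gated cells 26 of 40 further replication genes were lower, 42 of 51 further mitotic genes were lower and 1 higher, and the controllers went in both directions, 7 higher and 7 lower of 38, beside 1468 higher and 1379 lower among the 12923 genes tested. Of the controllers, the antiproliferative gene Btg1 was higher by 0.84 ± 0.10, the kinase inhibitor Cdkn1a by 0.81 ± 0.11 and the p53 ligase Mdm2 by 0.87 ± 0.13 (SE, log2), and cyclin D1, Ccnd1, was lower at -0.86 ± 0.11. Dendritic-gated cells had 2 higher and 16 lower among further replication genes, 0 higher and 35 lower among further mitotic genes and 8 higher and 10 lower among controllers, beside 2135 higher and 2909 lower among the 12936 genes tested. Cyclin D2, Ccnd2, was higher there by 2.60 ± 0.16, the kinase inhibitor Cdkn2b by 4.25 ± 0.41 and Btg1 by 1.07 ± 0.15, and the D-cyclin kinase Cdk6 was lower at -1.37 ± 0.18. Named after their values were seen, because they went against the rest of their list, were Cks2 (0.73 ± 0.15) of the further mitotic genes in monocyte-gated cells and Gins3 (2.14 ± 0.34) and Pold1 (0.66 ± 0.27) of the further replication genes in dendritic-gated cells.

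T-gated cells had 17 higher and 0 lower of 40 further replication genes, 14 higher and 5 lower of 51 further mitotic genes and 18 higher and 5 lower of 38 controllers, beside 3746 higher and 4294 lower among the 13555 genes tested. The share higher among the further mitotic genes was near that of all genes, 27.6%. Among the replication genes, the histone mRNA binder Slbp was higher by 1.24 ± 0.12, the single-strand binding subunit Rpa2 by 1.28 ± 0.13, the origin subunit Orc1 by 1.30 ± 0.25 and the origin-firing kinase Cdc7 by 1.16 ± 0.27 (SE, log2). Among the mitotic genes, the Cdk1 partner Cks2 was higher by 1.39 ± 0.12, securin, Pttg1, by 0.89 ± 0.10, the centromere histone Cenpa by 0.99 ± 0.12 and the condensin subunit Smc4 by 0.74 ± 0.10. Among the controllers, Ccnd1 was lower at -3.48 ± 0.13 and Cdkn1a at -1.72 ± 0.10, and the RB relative Rbl2 was higher by 2.26 ± 0.13 and cyclin D3, Ccnd3, by 1.47 ± 0.10. NK-gated cells had 15 higher and 4 lower of the further replication genes, 8 higher and 6 lower of the further mitotic genes and 9 higher and 6 lower of the controllers, beside 2755 higher and 3589 lower among the 13268 genes tested. The share higher among the further mitotic genes was below that of all genes. The nucleotide hydrolase Dut was higher in NK-gated cells by 1.70 ± 0.15, Slbp by 1.20 ± 0.14 and the polymerase subunit Pold2 by 1.00 ± 0.17. Cks2 was higher by 1.45 ± 0.16, its relative Cks1b by 1.20 ± 0.16 and Cenpa by 1.04 ± 0.14, and the spindle protein Ckap2l was lower at -1.19 ± 0.19. Cdkn1a was lower at -2.16 ± 0.15, and Rbl2 was higher by 2.06 ± 0.17, Ccnd3 by 1.28 ± 0.15 and Myc by 1.20 ± 0.15. The genes that went the other way, also named after their values were seen, were Bub1b (-0.74 ± 0.17), Anln (-0.90 ± 0.23), Ckap2l (-0.94 ± 0.21), Espl1 (-1.03 ± 0.17) and Fzr1 (-0.82 ± 0.14) of the further mitotic genes in T-gated cells (log2 ± SE). In NK-gated cells they were Mcm10 (-0.87 ± 0.35), Gins1 (-0.56 ± 0.22), Lig1 (-0.44 ± 0.15) and Chaf1b (-0.59 ± 0.23) of the further replication genes and Ncapg2 (-0.61 ± 0.21), Ncaph (-0.71 ± 0.26), Ckap2l (-1.19 ± 0.19), Espl1 (-1.42 ± 0.30), Incenp (-0.82 ± 0.18) and Fzr1 (-0.76 ± 0.20) of the further mitotic genes. The lower controllers in T-gated cells were Ccnd1 (-3.48 ± 0.13), Cdkn1a (-1.72 ± 0.10), E2f1 (-1.43 ± 0.16), E2f2 (-0.32 ± 0.12) and Mdm2 (-0.40 ± 0.12).

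Cells rich in mitotic RNA were counted as those with 3 or more UMIs of the 20 mitotic genes, after each cell had been thinned to 2000 UMIs and shallower cells left out. Intervals are 95% Wilson intervals and cover counting error only. Macrophage-gated libraries had 21.9% (20.7 to 23.3), 14.5% (13.6 to 15.4), 12.4% (11.1 to 13.7) and 13.3% (12.2 to 14.5), and control 1 stood above the other 3 libraries. In T-gated cells they were 8.66% (4.91 to 14.8), 8.68% (6.11 to 12.2), 15.8% (13.5 to 18.3) and 11.1% (8.77 to 13.8), with LNP-Sirpa 1 the highest. NK-gated cells had 18.0% (12.4 to 25.4), 10.8% (5.95 to 18.7), 7.98% (5.28 to 11.9) and 17.2% (9.64 to 28.9). Shares were lower in monocyte-gated cells, at 7.37% (3.61 to 14.4), 0% (0 to 5.83), 1.87% (1.07 to 3.24) and 1.57% (0.8001 to 3.08), and in dendritic-gated cells, at 4.396% (1.72 to 10.8), 1.90% (0.524 to 6.68), 6.54% (3.59 to 11.6) and 3.23% (0.572 to 16.2). Monocyte-gated control 2 had 0 of 62 cells at the threshold; the limit that a count of 0 allows, taken as 3 cells, is 4.84%, a one-sided limit that lies below the two-sided Wilson bound. The neutrophil background was 0%, 0%, 5.38% and 1.75% of 8, 2, 93 and 57 cells, so the monocyte-gated shares of the LNP-Sirpa libraries lay at or below it. Without thinning the shares were 42.0%, 27.9%, 26.9% and 29.3% in macrophage-gated, 21.7%, 22.1%, 23.4% and 18.9% in T-gated, 41.5%, 31.6%, 15.1% and 20.8% in NK-gated and 0%, 0%, 6.67% and 2.86% in neutrophil-gated cells. The median UMIs per cell behind these were 7406, 6914, 7600.5 and 8834 in the macrophage gate, 4830, 5274, 5089 and 3949 in the T gate, 12164, 6971.5, 5337.5 and 4682 in the NK gate and 2477, 1462, 2527 and 2054 in the neutrophil gate. Near the threshold, at 3 or 4 mitotic UMIs after thinning, lay 254, 291, 94 and 160 macrophage-gated and 4, 9, 32 and 21 T-gated cells.

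The share with 3 or more replication UMIs was 21.0% (19.7 to 22.3), 14.2% (13.3 to 15.1), 11.9% (10.7 to 13.2) and 12.4% (11.3 to 13.6) in macrophage-gated cells. It was 12.6% (7.91 to 19.49), 12.3% (9.18 to 16.2), 20.1% (17.6 to 22.8) and 16.7% (13.9 to 19.9) in T-gated cells and 18.0% (12.4 to 25.4), 11.8% (6.73 to 19.9), 13.7% (10.1 to 18.4) and 15.5% (8.38 to 26.9) in NK-gated cells. Monocyte-gated cells had 3.16%, 0%, 2.34% and 2.76% and dendritic-gated cells 0%, 3.81%, 6.54% and 3.23%. The empty libraries among these, monocyte-gated control 2 and dendritic-gated control 1, allow shares of up to 4.84% and 3.30% by the same limit of 3 cells, and up to 5.83% and 4.05% by the Wilson interval. Neutrophil-gated cells had 0 in all 4 libraries, which by the limit of 3 cells allows up to 3.23% in LNP-Sirpa 1 and 5.26% in LNP-Sirpa 2. Replication and mitotic UMIs were found together in single cells. Of the macrophage-gated cells with 3 or more mitotic UMIs, 394 of 837 (47.1%), 379 of 844 (44.9%), 109 of 307 (35.5%) and 168 of 436 (38.5%) also had 3 or more replication UMIs. The matching numbers were 6 of 11 (54.5%), 14 of 29 (48.3%), 89 of 139 (64.0%) and 48 of 65 (73.8%) in T-gated cells and 13 of 24 (54.2%), 5 of 10 (50%), 10 of 21 (47.6%) and 5 of 10 (50%) in NK-gated cells. In each library the T-gated share with both lay above the macrophage-gated one, a difference that was not tested. Split by subset, the mitotic shares were 13.0% (6.12 to 25.7), 6.43% (3.99 to 10.2), 17.9% (14.8 to 21.5) and 13.2% (9.99 to 17.3) in CD8 T cells and 7.14% (2.46 to 19.01), 18.0% (9.77 to 30.8), 16.3% (11.9 to 21.97) and 9.52% (5.53 to 15.9) in Foxp3 T cells, with no overlap between the groups in the CD8 subset and overlap in the Foxp3 subset.

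**Figure D3:**
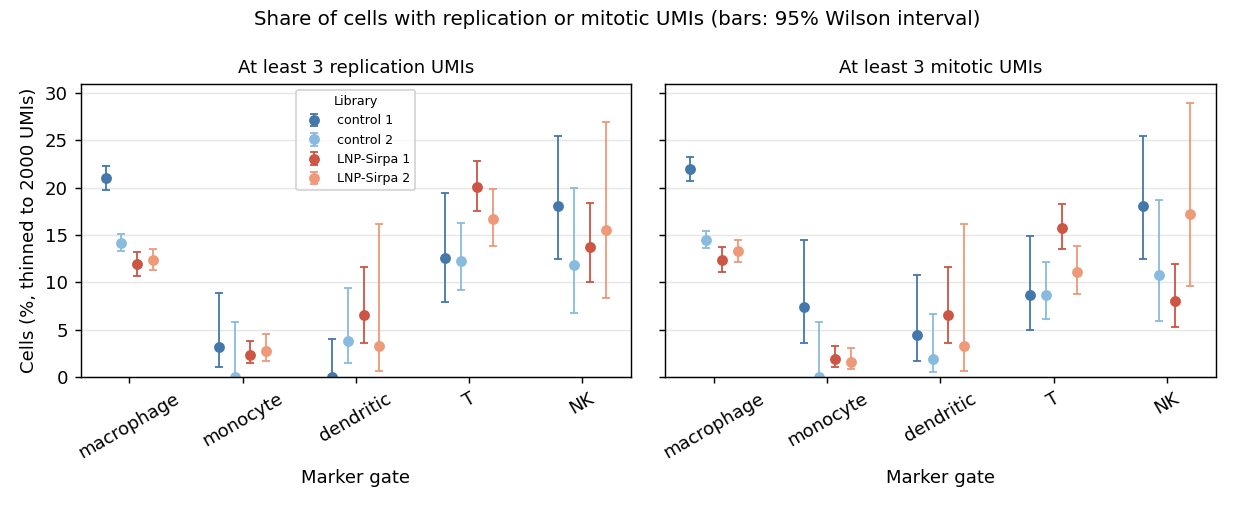
Percent of cells with 3 or more replication UMIs (left) or mitotic UMIs (right), each cell thinned to 2000 UMIs, by gate and library, with 95% Wilson intervals as bars. For the mitotic UMIs, macrophage-gated control 1 and NK-gated control 1 and LNP-Sirpa 2 stand highest, and monocyte-gated libraries stand low.

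With 2 libraries against 2, an exact permutation test over libraries cannot give a two-sided p below 0.3333. The mean share in macrophage-gated cells was 18.2% ± 5.30 (SD, n = 2) in controls and 12.8% ± 0.658 (SD, n = 2) in LNP-Sirpa libraries, a difference of -5.36 percentage points (exact permutation p = 0.3333). The difference was -1.62 points without control 1 and -9.11 points without control 2. In T-gated cells the means were 8.67% ± 0.0150 (SD, n = 2) and 13.4% ± 3.33 (SD, n = 2), a difference of 4.74 points (exact permutation p = 0.3333), which turned to -0.722 points without thinning and was 2.38 points without LNP-Sirpa 1. The differences were -1.96 points in monocyte-gated, 1.73 in dendritic-gated and -1.79 in NK-gated cells (exact permutation p = 1, 0.667 and 0.667), and the groups overlapped in all of these gates. The dendritic-gated difference was 0.0756 points without LNP-Sirpa 1, 0.485 without control 2, 2.98 without control 1 and 3.39 without LNP-Sirpa 2. The monocyte-gated difference was 1.72 points without control 1 and -5.65 without control 2. The NK-gated difference was 1.86 points without control 1, -5.43 without control 2, 2.84 without LNP-Sirpa 1 and -6.41 without LNP-Sirpa 2.

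The study compared LNP-Sirpa with control tumours, and this was tested in each gate by edgeR over all genes. In macrophage-gated cells no member of 40 passed, where 0.137% of all genes did; 10 members had an unadjusted p under 0.05, as had 16.5% of all genes. DESeq2 called 2 members, Mki67 and Tk1, both lower with LNP-Sirpa, and 6.63% of all genes in either direction, here and below over genes that DESeq2 gave an adjusted p. The number lower was 11 with no filter on low counts, a setting for which the share of all genes was not counted. The log2 difference, LNP-Sirpa over control, was negative for all 20 mitotic genes, from -0.79 to -0.18 with a median of -0.42. Over the 19 replication genes it ran from -0.91 to 0.16 with a median of -0.24, and the median of all genes was -0.00. Mki67 was at 163, 121, 81.1 and 67.3 CPM, both LNP-Sirpa libraries below both controls, a log2 difference of -0.79 ± 0.18 (SE), adjusted p = 0.119. Tk1 was at 68.7, 55.0, 25.2 and 33.1 CPM, again without overlap, at -0.91 ± 0.23 (SE), adjusted p = 0.142. Rrm2 was at 24.96, 20.7, 10.5 and 13.9 CPM and differed by -0.73 ± 0.23 (SE), adjusted p = 0.206. None of the 3 passed the threshold.

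The log2 differences in macrophage-gated cells of the other genes followed in full were -0.38 ± 0.20 (SE), adjusted p = 0.405 for Mcm5 and -0.24 ± 0.18 (SE), adjusted p = 0.561 for Top2a. They were -0.43 ± 0.23 (SE), adjusted p = 0.423 for Ccnb1, -0.59 ± 0.27 (SE), adjusted p = 0.350 for Cdk1 and -0.65 ± 0.22 (SE), adjusted p = 0.230 for Cdc20. Top2a overlapped between the groups, and in the other 4 genes both LNP-Sirpa libraries lay below both controls. Control 1 was the highest macrophage-gated library in each of these genes. The share of all genes without overlap was not counted, so the separation is a description only. Of the further mitotic genes, 21 of 51 had an unadjusted p under 0.05, beside 16.5% of all genes, with a median log2 difference of -0.40, and the smallest edgeR adjusted p was 0.0789. Monocyte marker RNA summed to 227, 218, 545 and 356 CPM in the macrophage gate. It was higher in both LNP-Sirpa libraries, and its part in the result was not tested. When macrophage-gated and monocyte-gated cells were joined, the smallest edgeR adjusted p of the 40 members was 0.0615, 19 had an unadjusted p under 0.05 beside 19.6% of all genes, and the mitotic median was -0.54.

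In monocyte-gated cells 32 members passed the filter on low counts and none passed the edgeR test, where 2.29% of all genes did; 7 had an unadjusted p under 0.05, as had 15% of all genes, and DESeq2 called 0 members and 2.77% of all genes. Single libraries moved these values: without control 1 the member median turned to 0.54. Mki67 was at 85.4, 17.4, 19.02 and 17.8 CPM, with control 1 alone high, and differed by -1.56 ± 0.49 (SE), adjusted p = 0.158, or by 0.12 without control 1. In dendritic-gated cells none of 23 members passed in edgeR, where 0.695% of all genes did; 1 had an unadjusted p under 0.05, as had 11.4% of all genes. DESeq2 called 0 members there and 0.755% of all genes. The gene with the unadjusted p under 0.05 was Top2a, at 12.8, 24.8, 78.1 and 20.02 CPM, with LNP-Sirpa 1 alone high and a log2 difference of 1.53 ± 0.50 (SE), adjusted p = 0.226. Of the wider lists, the DNA ligase Lig1 was higher with LNP-Sirpa in monocyte-gated cells, by 1.70 ± 0.42 (SE, log2, edgeR adjusted p = 0.0477). Ccnd2 was higher in dendritic-gated cells, by 1.33 ± 0.22 (SE, log2, edgeR adjusted p = 0.0188). Each was the only gene of these lists to pass in its gate, where 2.29% and 0.695% of all genes did, so neither is a result about its list.

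In T-gated cells none of 40 members passed in edgeR, where 0.0563% of all genes did; 9 had an unadjusted p under 0.05, as had 7.73% of all genes, and DESeq2 called 0 members and 0.407% of all genes. All 40 log2 differences were positive, with medians of 0.42 over the replication genes and 0.38 over the mitotic genes, against -0.00 over all genes. Mki67 was at 81.5, 67.9, 140.5 and 84.8 CPM, both LNP-Sirpa libraries above both controls, and differed by 0.58 ± 0.23 (SE), adjusted p = 0.564. Top2a was at 114, 98.9, 190.5 and 139 CPM, without overlap, and differed by 0.62 ± 0.19 (SE), adjusted p = 0.414. Rrm2, at 28.8, 28.8, 38.2 and 45.8 CPM, differed by 0.51 ± 0.24 (SE), adjusted p = 0.667, and Mcm5, at 25.1, 36.4, 47.3 and 39.9 CPM, by 0.42 ± 0.24 (SE), adjusted p = 0.734. With 1 library left out, a group is down to a single library, so no count of members is given here for such fits. T-cell subsets gave different medians: 0.65 and 0.54 in CD8 T cells and 0.08 and 0.04 in Foxp3 T cells, for replication and mitotic genes that passed the filter on low counts. The difference between the subsets was not tested.

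In NK-gated cells none of 36 members that passed the filter on low counts passed in edgeR, where 0.353% of all genes did; 2 had an unadjusted p under 0.05, as had 8.1% of all genes, and DESeq2 called 0 members and 0.391% of all genes. The LNP-Sirpa libraries went opposite ways in the mitotic sums given above. Cdc20 was at 58.7, 51.4, 24.7 and 149 CPM and differed by 0.51 ± 1.08 (SE), adjusted p = 0.959, with LNP-Sirpa 2 above and LNP-Sirpa 1 below both controls.

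**Figure D4:**
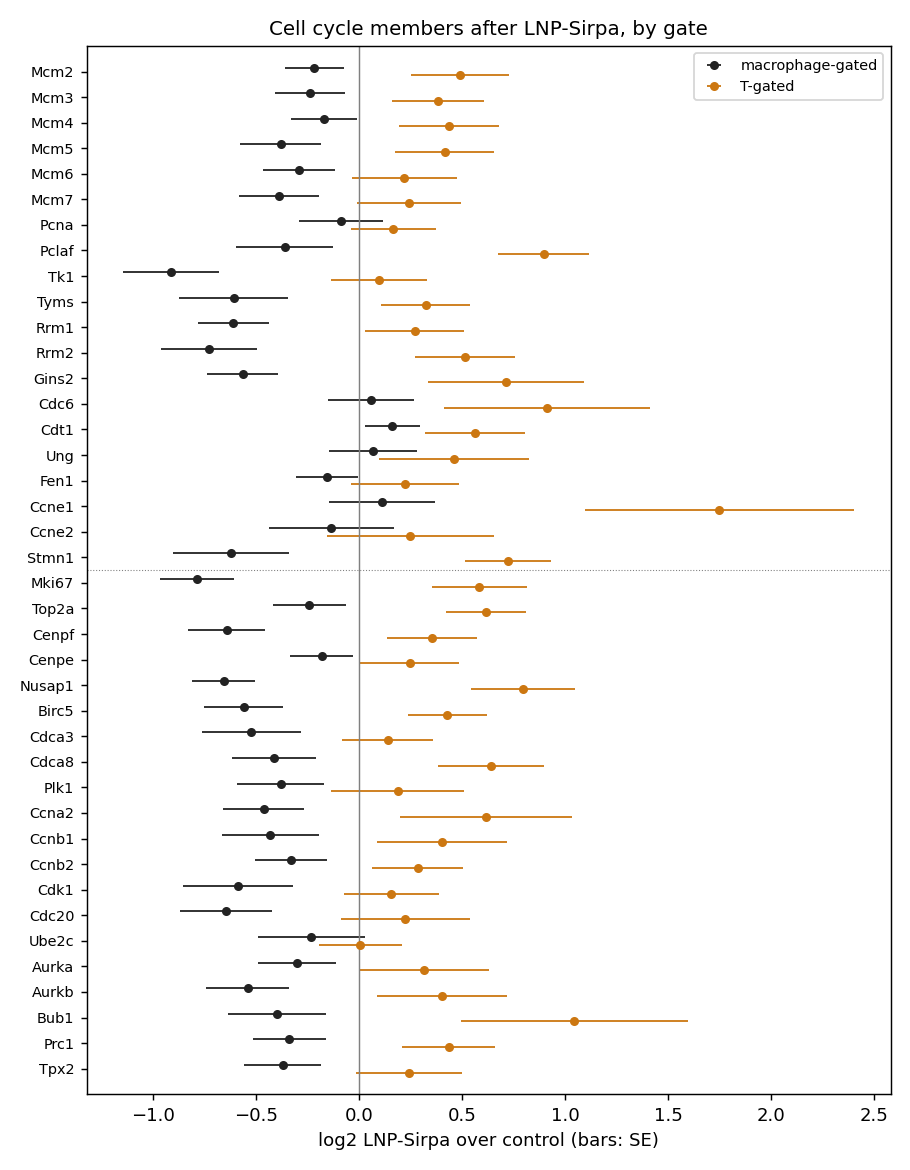
Log2 difference of LNP-Sirpa over control libraries for each of the 40 members in macrophage-gated (black) and T-gated (orange) cells, with its standard error. No point passes the adjusted threshold; the macrophage-gated mitotic genes all lie below 0 and the T-gated members all lie above 0.

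The direction of the LNP-Sirpa difference in T-gated cells was set against that in macrophage-gated cells of the same libraries by an interaction term in edgeR. Mki67, Rrm2 and Nusap1 passed, all with a higher difference in T-gated cells, where 0.0745% of all genes passed in that direction. For Mki67, whose CPM values in both gates are given above, the LNP-Sirpa difference itself differed by 1.34 ± 0.22 (SE), adjusted p = 0.00858 on the log2 scale. Nusap1 was at 36.6, 29.2, 19.6 and 17.9 CPM in macrophage-gated and 20.1, 32.8, 53.9 and 45.5 CPM in T-gated cells, lower with LNP-Sirpa without overlap in the first gate and higher without overlap in the second, a difference of 1.45 ± 0.28 (SE), adjusted p = 0.0364. Rrm2 differed by 1.28 ± 0.26 (SE), adjusted p = 0.0429. All 40 interaction terms were positive, with a median of 0.77 against -0.03 over all genes, and 29 had an unadjusted p under 0.05, as had 7.96% of all genes. DESeq2 called 3 members and 0.761% of all genes in either direction. Other settings called 1 with DESeq2 size factors in edgeR and 1 with cells thinned to 2000 UMIs. They called 7 with stricter gates and 12 with no filter on low counts. The share of all genes was not counted under these settings. Pan-phagocyte marker RNA in the T gate, given above, was lower in both LNP-Sirpa libraries, and its part in these differences was not tested.

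Against macrophage-gated cells, the LNP-Sirpa difference in dendritic-gated cells was higher for Top2a and Cdk1, where 0.118% of all genes passed in that direction. Top2a differed by 1.79 ± 0.41 (SE), adjusted p = 0.00451 and Cdk1 by 2.13 ± 0.56 (SE), adjusted p = 0.0346 on the log2 scale; Cdk1 was at 7.69, 7.43, 24.96 and 5.004 CPM in dendritic-gated cells. An unadjusted p under 0.05 was found for 8 of the 40 members and 5.51% of all genes. DESeq2 called 0 members and 0.225% of all genes, and thinned cells gave 0. Without LNP-Sirpa 1 the difference of Cdk1 turned negative. In monocyte-gated cells no interaction passed in edgeR, where 1.61% of all genes did. There 9 had an unadjusted p under 0.05, as had 8.72% of all genes, and DESeq2 called 0 members and 0.608% of all genes. In NK-gated cells none passed in edgeR, where 0.755% of all genes did. There 2 had an unadjusted p under 0.05, as had 6.68% of all genes, and DESeq2 called 0 members and 0.24% of all genes. Among the wider lists, Lig1 and the licensing inhibitor Gmnn had higher LNP-Sirpa differences in monocyte-gated than in macrophage-gated cells, by 2.16 ± 0.41 and 1.51 ± 0.41 (SE, log2), and Ccnd2 a lower one in NK-gated cells, at -1.02 ± 0.25.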

How the data were processed

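The deposited values are UMI counts per gene and cell, in matrices that PISA 1.0 wrote, per the file headers, for 4 cDNA libraries. Per the submitters' processing notes, STAR 2.5.1b and the GRCm39 build were used; how cells were called and which annotation was used is not given in the sources used here. From these counts, a cell was kept with 500 or more UMIs, 300 or more genes and no more than 15% of its UMIs mitochondrial, and 3 to 16 barcodes per library failed. Cells were gated by summed UMIs of marker genes per 10000 UMIs, with thresholds set on the marker distributions; the gates are rebuilt names, not an annotation of the authors. Scrublet marked at most 1 cell per library by its own threshold, so it did not work here; no doublets were removed in the reported values, and the 5% with the highest scores were left out as an alternative. Barcode names are running numbers, so the 830 to 1242 names shared by pairs of libraries do not mark shared cells. UMIs were summed per gate and library and tested with edgeR 4.0.16 (TMM, filterByExpr, robust quasi-likelihood test, Benjamini-Hochberg adjustment over all genes tested, threshold 0.05), in R 4.3.3; between-gate fits had the library as a block, and DESeq2 1.42.0 was an alternative. The replicate numbers of the labels were used as a block only in an alternative. Python 3.11.15, scanpy 1.11.5 and scipy 1.17.1 were used for cells and shares; thinning drew 2000 UMIs per cell with a fixed seed, and the scripts were tested on simulated data. Values in every library were to be given for members past the threshold in any gate and for Mcm5, Pcna, Rrm2, Ccne1, Mki67, Top2a, Ccnb1, Cdk1 and Cdc20, and up to 4 genes per wider list and gate by smallest p. The members and lists were chosen with earlier results of these data known.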

Additional observations from a re-analysis of the deposited data

Results flagged for a closer look

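For 5 genes the LNP-Sirpa difference in macrophage-gated cells and that in another gate differed by a test of the difference itself, the interaction term of edgeR with its p adjusted over all genes. In T-gated minus macrophage-gated cells the log2 values were 1.34 ± 0.22 for Mki67, 1.45 ± 0.28 for Nusap1 and 1.28 ± 0.26 for Rrm2 (SE), with adjusted p = 0.00858, 0.0364 and 0.0429. All 3 were lower in both LNP-Sirpa libraries than in both controls in macrophage-gated cells and higher in both in T-gated cells. The genes were picked by the interaction in these same libraries, so this pattern describes the calls and adds no support. In dendritic-gated minus macrophage-gated cells they were 1.79 ± 0.41 for Top2a and 2.13 ± 0.56 for Cdk1 (SE), with adjusted p = 0.00451 and 0.0346. Both rest on LNP-Sirpa 1, the highest dendritic-gated library of each gene; without it no interaction passed, and that of Cdk1 turned negative. The groups held too few libraries for a check of single outlying samples.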

How the results depend on the processing

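Of the comparisons, 152 values kept within 1.5 times of the count or kept the sign of the share difference under the alternatives run. A further 48 counts moved and 7 share differences changed sign. A share difference that kept its sign could still change much in size. Of the single-gene values, 462 kept their direction and their side of the threshold, 53 lost the threshold, 20 gained it and 10 turned. The cause was not tested except where the alternative has fewer libraries or UMIs. With 1 library left out, members past the threshold for LNP-Sirpa numbered 0 to 3 in macrophage-gated, 0 to 8 in monocyte-gated, 0 to 1 in dendritic-gated, 0 to 5 in T-gated and 0 to 13 in NK-gated cells; a lone library was then assumed to vary like the other group. Against macrophage-gated cells they numbered 2 to 12 in T-gated and 3 to 6 in NK-gated cells, and for the difference in the LNP-Sirpa effect 0 to 2 in monocyte-gated, 0 to 3 in dendritic-gated, 3 to 16 in T-gated and 0 to 10 in NK-gated cells. With no filter on low counts, the LNP-Sirpa counts were 11, 3, 1 and 2 in macrophage-gated, monocyte-gated, dendritic-gated and T-gated cells, T-gated against macrophage-gated cells 8, and the effect differences 1 dendritic, 12 T and 1 NK. DESeq2 gave 2 for LNP-Sirpa in macrophage-gated cells and 0 for the dendritic effect difference, and its size factors in edgeR gave 1 for the T effect difference. With cells thinned to 2000 UMIs the counts against macrophage-gated cells were 18 dendritic, 8 T and 2 NK, and the effect differences 0 dendritic and 1 T. Stricter gates gave 20 for NK-gated against macrophage-gated cells, and effect differences of 1 monocyte, 1 dendritic and 7 T. Leaving out the highest doublet scores gave effect differences of 1 monocyte and 1 dendritic. Shares of all genes were counted for DESeq2, as given above, but not for the other settings. Their counts show how far the calls moved and cannot be set against all genes.

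Single-gene log2 values that turned were Mki67 with LNP-Sirpa in monocyte-gated cells, -2.07 to 0.12 with 1 library left out; Mcm5 in T-gated cells, -0.0639 in Foxp3 T cells alone; and Rrm2 in T-gated cells, -0.0335 when thinned. Cdc20 in NK-gated cells was -1.23 to 1.49 with 1 library left out and -0.0250 with stricter gates, and the Cdk1 effect difference in dendritic-gated cells was -0.35 to 2.58 with 1 library left out. Against macrophage-gated cells, thinning gave -0.0637 for Ube2c in T-gated cells, -0.25 for Tyms and -0.22 for Ccnb1 in NK-gated cells, and stricter gates gave -7.23e-04 for Ccnb1. The difference in the share of mitotic-rich cells ran with 1 library left out from -5.65 to 1.72 points in monocyte-gated and -6.41 to 2.84 points in NK-gated cells. It was -0.824 points in dendritic-gated and -0.722 points in T-gated cells without thinning, and in NK-gated cells 1.07 points at 1000 UMIs and 0.326 with stricter gates. Depth limits the small gates most, where many members rest on a few UMIs.

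With the replicate number of the labels as a block, 2 members were lower with LNP-Sirpa in macrophage-gated cells, 2 in monocyte-gated cells, 0 passed in dendritic-gated, 0 in T-gated and 0 in NK-gated cells. The share of all genes was not counted in these fits, so the counts are no result about the members. The numbers are not known to pair the samples: deviations of same-numbered libraries correlated at 0.03, -0.05, -0.17, 0.04 and 0.02 in these gates, across genes.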
